A study of Homo sapiens with 10 samples.

Results

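The genes described here are the expressed LINC genes, long noncoding RNA genes that carry a LINC symbol with a number because no function or sequence family has given them another name. They were selected on their GENCODE 29 symbol and on their level, a mean of at least 0.5 CPM (the count of a gene scaled to 1e6 gene counts of its library) over all 10 libraries. Of 1771 LINC genes in the count files, 150 met the rule. The libraries came from RS4;11, an established human cell line of acute lymphoblastic leukemia with a B cell precursor phenotype (BCP-ALL) that carries the KMT2A-AFF1 fusion. Venetoclax (VEN) inhibits the anti-apoptotic protein BCL-2, and the comparison sets leukemia cells that no longer respond to it beside cells that do. VENins lines, 5 in number, were grown in parallel under VEN concentrations raised up to 100 nM over 8 months, and 5 VENsens lines received the solvent DMSO for the same time. The authors state that VENins lines stayed under VEN, VENsens lines did not, and the drug was washed out ahead of analyses. Lost response and continued exposure to VEN therefore cannot be told apart in this comparison. The lines are separately kept cultures of 1 parental line, and each gave 1 library of poly(A) RNA for sequencing.

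Gene counts ran from 20631907 to 28323643 per library in VENsens lines and from 21145316 to 25394653 in VENins lines. The choosing level of 0.5 CPM therefore stood for 10.3 counts in the shallowest and 14.2 counts in the deepest library. Because the mean over all libraries chose the members, their levels are given as a description. The contrast between VENins and VENsens lines was not part of the choice. A member near the minimum level can still have met it through the lines of 1 condition.

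Long intergenic noncoding RNAs are transcribed by RNA polymerase II, and most are capped, spliced and polyadenylated like mRNAs but do not encode a protein. Many are made at low levels and in few cell types, often close to genes that control the identity of that cell. Some act on the chromatin or the transcription of a neighbouring gene, others bind proteins or microRNAs, and for most of them no role is known.

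Markers of B cell precursors were present in every line, and 10 of 10 had a mean of at least 1 CPM, with PAX5 the highest at 706 CPM. DNTT had the lowest mean, 6.02 CPM, and ranged from 1.09 to 27.3 CPM among the libraries. PAX5 itself was lower in VENins lines, with 784 ± 42.6 CPM (mean ± SD of 5 lines) in VENsens against 629 ± 35.8 CPM in VENins. Its log2 fold change was -0.31 (SE 0.05), adjusted p = 0.0272 in edgeR's quasi-likelihood test, and 0.242, 0.0597 and 0.0647 without line pair 2, 3 and 5, in a range from 1.24e-06 over all alternatives. The other 9 markers did not pass, and their log2 fold changes ran from -0.36 for DNTT to 0.24 for CD79B (adjusted p = 0.200), with CD79A, CD79B, EBF1 and VPREB1 above 0 and the other 5 below. For DNTT (SE 0.52, adjusted p = 0.790) the group means went the other way, with 5.02 ± 2.25 CPM (mean ± SD of 5 lines) in VENsens against 7.03 ± 11.4 CPM in VENins. The summed level of all 10, PAX5 included, was 3496 to 3748 CPM in VENsens and 3400.1 to 3541 CPM in VENins lines. Of 5 T cell markers, CD3E had the highest mean with 0.859 CPM and CD8A was at 0. Among 3 NK cell markers, NKG7 reached 51.5 CPM, while KLRD1 was at 0 and GNLY at 0.0680 CPM. CSF1R was the most abundant of 5 myeloid markers at 9.49 CPM, with MPO at 0.139 and ELANE at 0.00429 CPM. Erythroid and epithelial markers stayed below a mean of 0.5 CPM in 7 of 7 genes, and of 3 fibroblast markers COL1A1 was at 2.71 CPM and PDGFRA at 0. The summed level was 45.2 to 52.6 CPM in VENsens and 48.0 to 63.2 CPM in VENins lines for the NK cell list, and 7.42 to 10.9 and 9.995 to 12.4 CPM for the myeloid list.

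Most LINC genes were silent or nearly so in these cells. No read was counted in any library on 1012 of the 1771 genes, and another 609 had counts but a mean under 0.5 CPM. The 150 expressed genes held 96.8% of all LINC counts. Of the 150, 111 reached 1 CPM, 26 reached 10 CPM and 5 reached 50 CPM. GENCODE 29 classes 118 of the members as lincRNA, 12 as processed transcripts, 9 as antisense genes and 6 as transcribed pseudogenes. A single member is classed as protein-coding, LINC00672, named here after its class was seen and called LASP1NB in a newer table. The members lie on 23 chromosomes, with 20 on chromosome 1 and 13 on chromosome 12, and 21 have 1 exon in their longest transcript.

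The minimum level put genes of nearly equal abundance on both sides. Just inside were LINC00115 with a mean of 0.510 CPM, and LINC00958 and LINC02428 with 0.504 CPM each. LINC02598 at 0.494 CPM, LINC02166 at 0.493 CPM and LINC01465 at 0.485 CPM were just outside. Between 4 and 22 reads per library were counted on the 3 genes just inside, and 4 to 17 on the 3 just outside.

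To compare levels between genes, mean CPM was divided by the length of the merged exons in kilobases. The median member had 1.00 CPM per kilobase, and 9 members had at least 10. By far the highest level was that of LINC02363, with 43.1 CPM per kilobase, followed by LINC01215 with 21.1, LINC00426 with 18.4 and LINC01578 with 17.1 CPM per kilobase. LINC00847 had 13.6, LINC00339 and LINC00163 had 13.0 each, LINC00909 had 10.8, LINC01221 had 10.7 and LINC00888 had 9.48 CPM per kilobase. The values of LINC02363 lay above those of the other 9 in every line, whereas those of LINC01215, LINC00426 and LINC01578 overlapped, as did those of LINC00847, LINC00339 and LINC00163. With the length of the longest transcript instead of merged exons, 8 of these 10 genes were again among the 10 highest, and LINC00909 and LINC01221 were not.

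**Figure D1:**
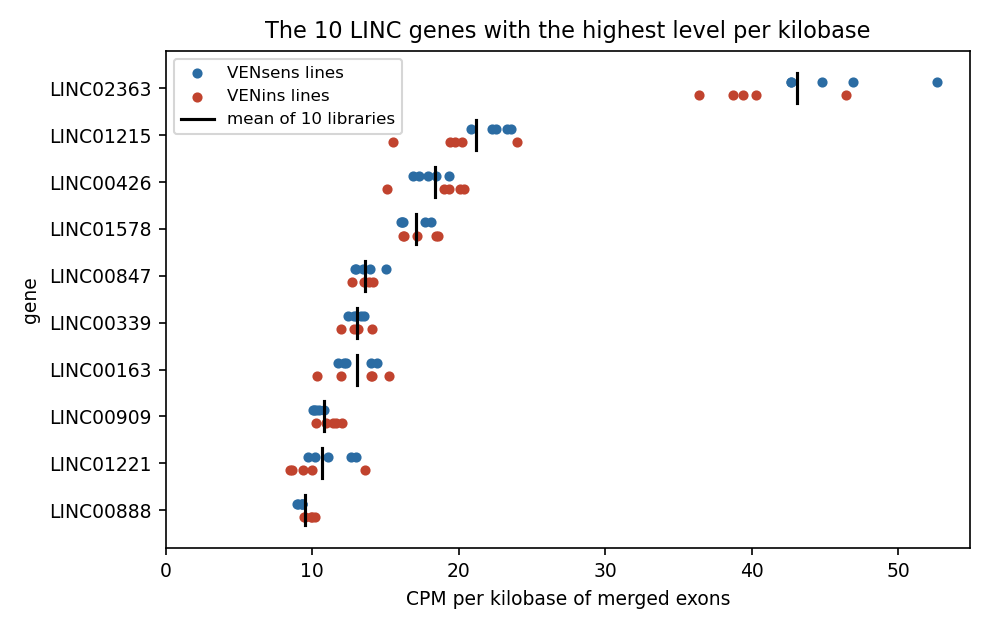
Level of the 10 LINC genes with the highest mean, in CPM per kilobase of merged exons (linear axis). Each point is 1 library, VENsens in blue and VENins in red, and the black bar is the mean of 10 libraries, which is 43.1 for LINC02363 and 9.48 for LINC00888.

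LINC02363 is a gene of 2 annotated transcripts on the minus strand at chr4:184340756-184353977 (GRCh38), 33736 bases from IRF2, which encodes a transcription factor of the interferon response. Its CPM was 110.4, 124, 100.5, 105 and 100.4 in VENsens lines 1 to 5 and 109, 92.6, 91.1, 94.8 and 85.6 in VENins lines 1 to 5. VENins lines were lower in 5 of 5 pairs, but VENins line 1 lay within the VENsens range. The log2 fold change was -0.19 (SE 0.06), with an adjusted p of 0.163 in edgeR's quasi-likelihood test, so that the difference did not pass the threshold of 0.05.

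LINC01578, now named CHASERR, ends 488 bases upstream of CHD2, a chromatin remodeler gene that this RNA is known to keep at a low level. CPM of LINC01578 was 95.6, 87.1, 97.6, 86.4 and 87.5 in VENsens and 87.4, 92.7, 100.4, 99.5 and 87.7 in VENins lines, with overlapping groups. CHD2, chosen after its values were seen, had 218 ± 19 CPM (mean ± SD of 5 lines) in VENsens against 181 ± 9.24 CPM in VENins. The log2 fold changes in edgeR's quasi-likelihood test were 0.05 (SE 0.06) for LINC01578, adjusted p = 0.739, and -0.26 (SE 0.06, adjusted p = 0.0854) for CHD2, and neither passed the threshold. CHD2 passed in edgeR without the line number (0.0423), without a filter (0.00150) and without line pair 4 (0.0321), and in DESeq2 with (0.0166) and without the line number (0.00251), with an adjusted p of up to 0.491 in the other alternatives.

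Libraries made by poly(A) selection favour RNAs with a polyadenylated end, which commonly carry the hexamer AATAAA shortly before the cleavage site. The hexamer was in the last 50 bases of the longest transcript in 75 of 150 members (50%). The share was 43.6% in the 1621 LINC genes below the level rule and 62.2% in 11748 protein-coding genes of the same minimum level. Including the variant ATTAAA, the shares were 58.7%, 53.9% and 76.6%. LINC02363, the member with the highest level per kilobase, is not shown, and the 2 ends given do not stand for the members as a whole. The annotated last 60 bases of 2 members are shown, which are among the 3 with the highest level per kilobase, with AATAAA in capitals.
LINC01215: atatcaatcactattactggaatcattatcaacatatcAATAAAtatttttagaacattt
LINC00426: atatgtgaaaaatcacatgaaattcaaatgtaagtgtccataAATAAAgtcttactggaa
The hexamer began 22 bases before the annotated end in LINC01215 and 18 bases before it in LINC00426. An RNA may end elsewhere than its annotation does.

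Together the members took a small and even share of each library. It was 0.125% ± 0.00371 of the gene counts in VENsens and 0.125% ± 0.00515 in VENins lines (± SD of 5). The ranges were 0.119% to 0.129% and 0.119% to 0.132%, and they overlapped almost fully. Of these counts, 47.0% were on the 10 most abundant members and 8.09% on LINC02363 alone.

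Between VENins and VENsens lines, 1 of 150 members differed past the threshold. LINC01108, lower in VENins lines, had an adjusted p under 0.05 in edgeR's quasi-likelihood test with line number as a factor, as did 0.197% of all 16756 tested genes (33 genes). In the direction of LINC01108, lower in VENins lines, 27 genes or 0.161% passed. All 150 members had passed the filter on low counts, so that each was tested. Without line pair 2 or 5 no member passed, without pair 1 there were 2 and without pair 4 there were 3, while 6 to 331 genes passed in all when a pair was left out.

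LINC01108 is a lincRNA gene of the minus strand at chr6:14280127-14285454 (GRCh38), with 2 exons in its longest transcript of 3152 bases. CPM was 30.0, 31.3, 31.1, 33.2 and 29.2 in VENsens lines 1 to 5, from 645 to 880 counts, and 26.4, 18.6, 21.7, 18.5 and 16.3 in VENins lines 1 to 5, from 379 to 558 counts. Every VENins line was below every VENsens line, and VENins line 1 was closest to them. The means were 30.9 ± 1.52 and 20.3 ± 3.91 CPM (SD, n = 5), and the spread was wider among VENins lines. The log2 fold change was -0.62 (SE 0.09), adjusted p = 0.0117 in edgeR's quasi-likelihood test, and lower in 5 of 5 pairs of lines. In that test the adjusted p was 0.198 without line pair 2 and 0.0563 without line pair 5, at log2 fold changes of -0.59 and -0.57. The unadjusted p was then 0.00013 and 4.97e-05, and 6 and 9 of all tested genes passed. The cause was not tested. Over all 12 alternatives the adjusted p ran from 1.76e-11 to 0.198. No transcript of another gene matched its longest transcript over 75 bases or more at 98% identity, and no annotated gene overlaps it.

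**Figure D2:**
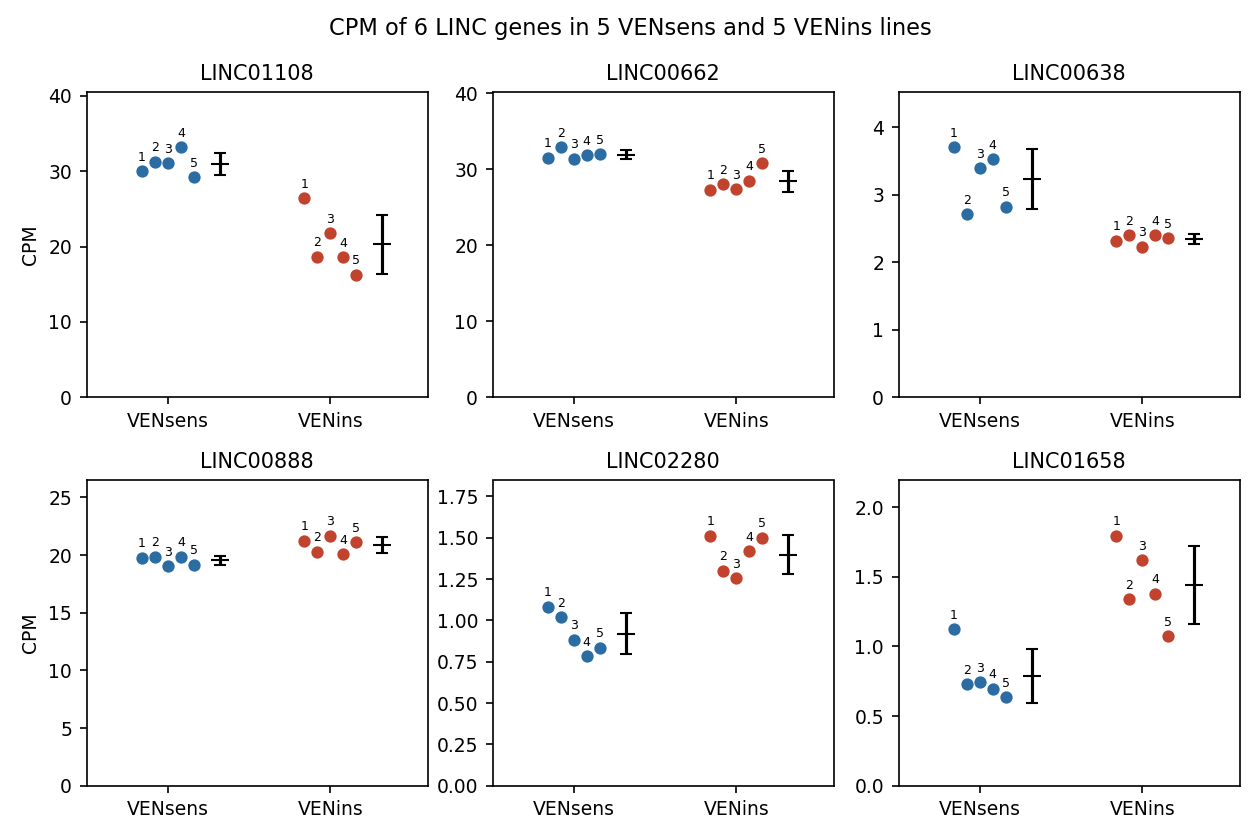
CPM of 6 LINC genes in each of 5 VENsens (blue) and 5 VENins lines (red), with line numbers beside the points and the mean ± SD in black. LINC01108 lay between 29.2 and 33.2 CPM in VENsens and between 16.3 and 26.4 CPM in VENins lines, and only LINC01658 has overlapping groups among the 6 genes.

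The protein-coding gene nearest to LINC01108 is CD83, an activation marker of B cells and dendritic cells, 143209 bases away. CD83 had 4.73 ± 0.607 CPM (mean ± SD of 5 lines) in VENsens against 5.00 ± 0.374 CPM in VENins. Its log2 fold change of 0.09 (SE 0.12, adjusted p = 0.779) in edgeR's quasi-likelihood test did not pass the threshold.

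The 300 bases around the annotated start of LINC01108, from RefSeq (GRCh38.p14, chr6:14285405-14285704, minus strand), are shown as the promoter of the member that passed the test, with TATAAA in capitals.
LINC01108: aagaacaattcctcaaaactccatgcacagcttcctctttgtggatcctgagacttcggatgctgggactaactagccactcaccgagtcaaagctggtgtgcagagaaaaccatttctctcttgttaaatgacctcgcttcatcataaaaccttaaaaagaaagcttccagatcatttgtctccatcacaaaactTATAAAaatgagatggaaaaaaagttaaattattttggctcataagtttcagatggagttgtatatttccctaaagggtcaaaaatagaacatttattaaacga
Its bases are 36.7% G or C with 4 CpG pairs, against medians of 58.0% and 12 over the 99 of 150 members matched to a promoter by symbol, and 58.7% and 14 over 35116 promoters. Of 5 motifs searched on both strands, the TATA box TATAAA, the E box CACGTG, the ETS factor site CCGGAA, the RUNX1 site TGTGGT and the palindrome bound by EBF1, LINC01108 held TATAAA alone. TATAAA was in 12 of the 99 members' promoters (12.1%) and in 11.5% of all promoters. The shares of members and of all promoters were 9.09% and 7.26% for CACGTG, 22.2% and 17.2% for CCGGAA, 13.1% and 13.1% for TGTGGT, and 1.01% and 1.21% for the EBF1 palindrome.

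LINC01658, now named FAM230I, had the next smallest p. It lies on chromosome 22, 86145 bases from IGLL1, which encodes a part of the surrogate light chain of the pre-B cell receptor. CPM of LINC01658 was 1.12, 0.727, 0.741, 0.696 and 0.636 in VENsens and 1.80, 1.34, 1.62, 1.38 and 1.07 in VENins lines. VENins lines were higher in 5 of 5 pairs, but VENsens line 1 was above VENins line 5. These values stood for 15 to 40 counts per library. With a log2 fold change of 0.89 (SE 0.19) and an adjusted p of 0.0653 in edgeR's quasi-likelihood test, LINC01658 did not pass. It passed without the line number (adjusted p = 0.0488) and without a filter (0.00190), in a range up to 0.429 over the alternatives, and DESeq2 gave it no adjusted p. IGLL1 had a log2 fold change of 0.17 (SE 0.06, adjusted p = 0.183) in edgeR's quasi-likelihood test with the line number.

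The other members among the 10 smallest p-values had adjusted p-values from 0.116 to 0.215 in edgeR's quasi-likelihood test and did not pass. LINC00963 had CPM of 8.25, 5.67, 5.40, 6.49 and 4.93 in VENsens and 7.85, 8.13, 11.1, 8.03 and 7.29 in VENins lines, where line 3 was high. The groups overlapped through VENsens line 1, and the log2 fold change was 0.48 (SE 0.13). Its adjusted p was 0.0492 without line pair 1 and 0.0253 with DESeq2 without the line number, in a range of 0.00166 to 0.545 over the alternatives. LINC00173, known for a part in granulocyte differentiation, had CPM of 0.833, 0.872, 0.883, 0.609 and 1.03 in VENsens and 0.378, 0.244, 0.811, 0.276 and 0.772 in VENins lines. VENins lines 3 and 5 of LINC00173 were within the VENsens range, and the log2 fold change was -0.77 (SE 0.27). The other VENins lines were under the minimum level of 0.5 CPM, which LINC00173 met through the VENsens lines. LINC02447 was near the level rule with 0.405 ± 0.156 CPM (mean ± SD of 5 lines) in VENsens against 0.679 ± 0.195 CPM in VENins, a log2 fold change of 0.75 (SE 0.27). Its VENsens mean was under the minimum level of 0.5 CPM, which LINC02447 met through the VENins lines, where it was higher. The more abundant LINC02532 and LINC01355 had smaller log2 fold changes of 0.25 (SE 0.09) and 0.23 (SE 0.09).

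Those members were set beside their nearest protein-coding genes, of which 7 of 8 could be tested and none passed the threshold. The log2 fold change in edgeR's quasi-likelihood test was 0.13 for NTMT1, near LINC00963, -0.08 for INF2, near LINC02280, and -0.24 for ZBTB42, near LINC00638. It was 0.01 for IRF2, 0.13 for GRPEL1, near LINC02447, 0.08 for QRSL1, near LINC02532, and 0.03 for HNRNPR, near LINC01355. MAP1LC3B2, near LINC00173, had a mean of 0.0652 CPM and was not tested.

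The CPM of 5 members did not overlap between VENins and VENsens lines, 3.33% of 150, against 745 genes or 4.45% of all tested genes. Lower in VENins lines were 3 members, or 2%, against a background of 2.46%, and higher were 2, or 1.33%, against 1.99%. These shares rest on few members and were close to the background. The members were also measured less precisely, with a median SE of 0.17 against 0.08 for all tested genes. LINC01108 was 1 of the 3 lower members.

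LINC00638, a gene of 1 exon, had CPM of 3.71, 2.71, 3.39, 3.53 and 2.82 in VENsens and 2.32, 2.40, 2.23, 2.40 and 2.36 in VENins lines. VENsens lines 2 and 5 were close to the VENins lines, which were nearly equal. The log2 fold change was -0.45 (SE 0.14), adjusted p = 0.141 in edgeR's quasi-likelihood test. LINC00662 had CPM of 31.5, 32.9, 31.4, 31.8 and 32 in VENsens and 27.3, 28.0, 27.3, 28.5 and 30.8 in VENins lines. Both groups were narrow, and the log2 fold change of -0.16 (SE 0.06) had an adjusted p of 0.218 in that test.

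LINC02280 had CPM of 1.08, 1.02, 0.883, 0.783 and 0.835 in VENsens and 1.51, 1.30, 1.26, 1.42 and 1.5 in VENins lines, at 18 to 36 counts per library. The groups were separate by a small margin, and the log2 fold change was 0.61 (SE 0.18), adjusted p = 0.140 in edgeR's quasi-likelihood test. LINC00888 had CPM of 19.8, 19.9, 19, 19.8 and 19.2 in VENsens and 21.2, 20.3, 21.7, 20.1 and 21.1 in VENins lines. VENins line 4 was nearest to the VENsens lines, and with a log2 fold change of 0.10 (SE 0.07) the adjusted p was 0.490 in that test.

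Among all members, 20, or 13.3%, had an unadjusted p under 0.05 in edgeR's quasi-likelihood test, against 16.2% of all tested genes. Higher in VENins lines were 12 members, or 8% against a background of 7.79%, and lower were 8 members, or 5.33% against 8.38%. The members at an unadjusted p under 0.05 were 10 without line pair 2 and 10 in DESeq2 with the line number. Without a filter they were 23. The log2 fold changes ranged from -0.77 to 0.89 with a median of 0.02, and the median over all tested genes was 0.00. At a log2 fold change within 0.25 of 0 were 111 members, and 8 exceeded 0.5 in either direction. Among these 8 were LINC00173 and LINC02447, which each met the level rule through 1 condition. Of the 26 members of at least 10 CPM, 3 exceeded 0.25 in either direction. The shares over all tested genes were not taken, and the median SE was 0.17 for members against 0.08 for those genes. The precision followed the level, with a median SE of 0.07 for 26 members of at least 10 CPM and of 0.27 for 39 members under 1 CPM.

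**Figure D3:**
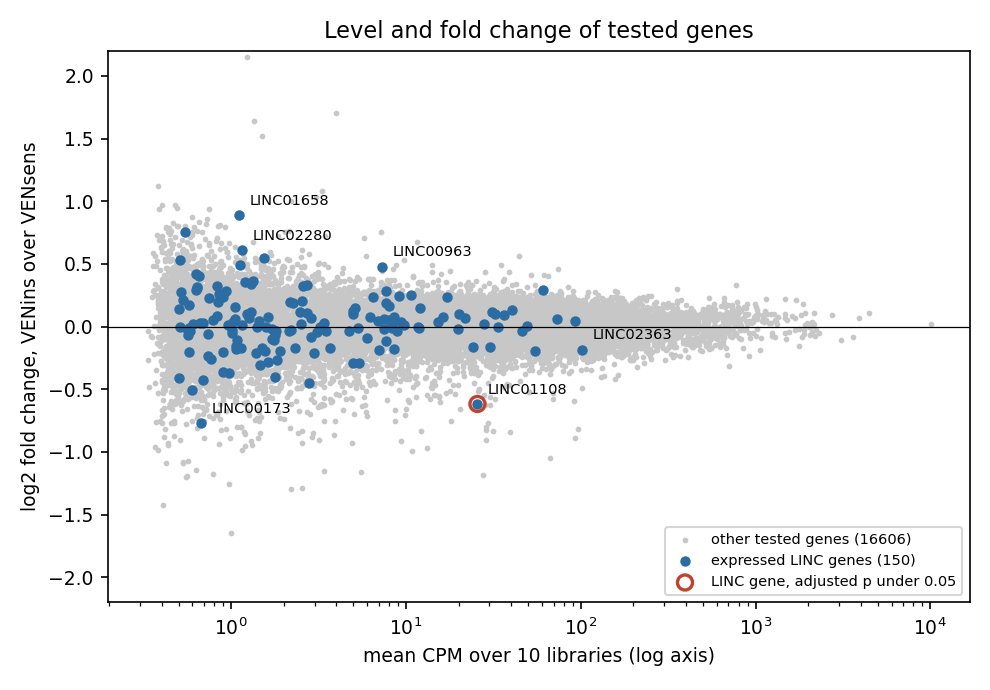
Log2 fold change of VENins over VENsens lines against mean CPM over 10 libraries (log axis) for 16756 tested genes. The 150 LINC genes are blue among the other genes in grey, and LINC01108, the member with an adjusted p under 0.05, is circled in red at -0.62.

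Other named classes of long noncoding RNA genes with the same minimum level were read from the same test. Of 24 snoRNA host genes with an SNHG symbol, 18 were expressed at this level, 75%, compared with 8.47% of the LINC genes. Their median level was 10.1 CPM per kilobase, against 1.00 in LINC genes, 0.829 in 16 microRNA host genes and 1.01 in 279 antisense genes. None of the 18 SNHG genes, the 16 microRNA host genes and the 278 tested antisense genes had an adjusted p under 0.05 in edgeR's quasi-likelihood test, while 5, 3 and 27 of them (27.8%, 18.8% and 9.71%) had an unadjusted p under 0.05, against 16.2% of all tested genes. With DESeq2, 0 of them passed with line numbers modelled, and without them 1 SNHG gene, SNHG19, and 1 antisense gene, LRRC75A-AS1, did. At an unadjusted p under 0.05 in edgeR were 8 SNHG genes (44.4%) without line pair 1 and 2 (11.1%) without line pair 2. Of the microRNA host genes, 1 (6.25%) was without line pair 3 or 5. Of the antisense genes, 9 (3.24%) were in DESeq2 with the line number. MIR222HG, with a log2 fold change of -0.41, and SOCS2-AS1, with -0.57, passed in edgeR without line pair 4, at -0.62 (adjusted p = 0.0270) and -1.14 (adjusted p = 0.000894). Over the alternatives their fold changes ran up to -0.27 and -0.29, and their adjusted p up to 0.564 and 0.756. Without a filter, MIR222HG (adjusted p = 0.0349), SOCS2-AS1 (adjusted p = 0.00144), SNHG3 and ELOA-AS1 passed. The median log2 fold change was 0.08 in SNHG genes, 0.01 in microRNA host genes and 0.03 in antisense genes, beside 0.02 in LINC genes.

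A list of 28 well studied long noncoding RNAs gave levels far above most members for some. OIP5-AS1 had a mean of 487 CPM, NEAT1, which builds nuclear paraspeckles, 219 CPM and TUG1 187 CPM, whereas MEG3 and HOTAIR were listed at 0 in every library. Of 27 tested identifiers, 0 passed the threshold in edgeR's quasi-likelihood test, and 6 had an unadjusted p under 0.05 with a higher and 3 with a lower level in VENins lines. These 9 are 33.3% of the 27 tested identifiers, against a background of 16.2%, with 7.79% higher and 8.38% lower. The count was 5 (18.5%) in DESeq2 with the line number, and in edgeR 6 (22.2%) without line pair 2 and 12 (44.4%) without a filter. DESeq2 passed 1, ZFAS1, with the line number and 3, ZFAS1, GAS5 and TP53TG1, without it, where 1.30% and 4.41% of all genes passed. In edgeR, ZFAS1 passed without a filter, without line pair 1 (adjusted p = 0.0255) and without line pair 4 (adjusted p = 0.0488), in a range of 0.000777 to 0.484 over the alternatives. The smallest adjusted p was that of ZFAS1, a snoRNA host gene, with 145 ± 10.8 CPM (mean ± SD of 5 lines) in VENsens against 176 ± 21.7 CPM in VENins, a log2 fold change of 0.28 (SE 0.06, adjusted p = 0.0783). GAS5, another snoRNA host, had 135 ± 5.82 CPM (mean ± SD of 5 lines) in VENsens against 153 ± 6.48 CPM in VENins, a log2 fold change of 0.19 (SE 0.05, adjusted p = 0.130). NORAD, which binds Pumilio proteins, had 187 ± 6.56 CPM (mean ± SD of 5 lines) in VENsens against 164 ± 17.5 CPM in VENins, a log2 fold change of -0.19 (SE 0.06, adjusted p = 0.152).

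Members often lay beside protein-coding genes. The gene bodies of 27 members overlap one, 15 of them on the opposite strand, and 11 members start head to head with a coding gene within 1000 bases. The nearest coding gene was within 5000 bases of 57 members and over 100000 bases from 24. For 109 members this neighbour was tested, 103 genes in all, and none of them passed the threshold in edgeR's quasi-likelihood test. At an unadjusted p under 0.05 were 19 of the 103 (18.4%), against 16.2% of all tested genes. Without line pair 2 they were 11 (10.7%), and in DESeq2 without the line number 25 (24.3%). DESeq2 passed 2, ID2 and SCCPDH, with the line number and 6 without it, where it passed 1.30% and 4.41% of all genes. In edgeR, ID2 and SCCPDH also passed without the line number, 7 passed without a filter and 3 without line pair 4, where 0.889%, 2.02% and 1.97% of all genes did. In 63 of the 109 pairs (57.8%) the member and its neighbour had log2 fold changes of the same sign, against 50.1% if signs were unrelated. Both fold changes come from the same 10 libraries, and the difference was not tested.

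Several neighbours, chosen here after their positions and values were seen, are genes of B cell development or of apoptosis. LINC02202 lies 722 bases from EBF1 and LINC00926 1084 bases from TCF12, both transcription factor genes of early B cells, and LINC01426 lies 2915 bases from RUNX1. The log2 fold changes in edgeR's quasi-likelihood test were 0.02 for LINC02202 beside 0.06 (SE 0.06, adjusted p = 0.685) for EBF1. They were 0.36 (SE 0.18) for LINC01426 beside -0.19 (SE 0.05, adjusted p = 0.126) for RUNX1 in that test, and RUNX1 passed with DESeq2 without the line number (0.0147) and in edgeR without a filter (0.0355), with an adjusted p of up to 0.561 in the alternatives. LINC00528, 2552 bases from BID, a pro-apoptotic gene of the BCL-2 family, had 0.08 (SE 0.09) beside 0.12 (SE 0.05, adjusted p = 0.294) for BID. The neighbour with the highest log2 fold change was ID2, an inhibitor of E proteins, 85942 bases from LINC01814, with 0.76 (SE 0.16, adjusted p = 0.0666) while LINC01814 itself had 0.02 (SE 0.28). ID2 passed in edgeR without the line number (adjusted p = 0.0492), without a filter (5.67e-09) and without line pair 4 (0.000193, log2 fold change 0.98), and in DESeq2 with (0.00989) and without the line number (0.0239). Its highest adjusted p was 0.484, without line pair 2.

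**Figure D4:**
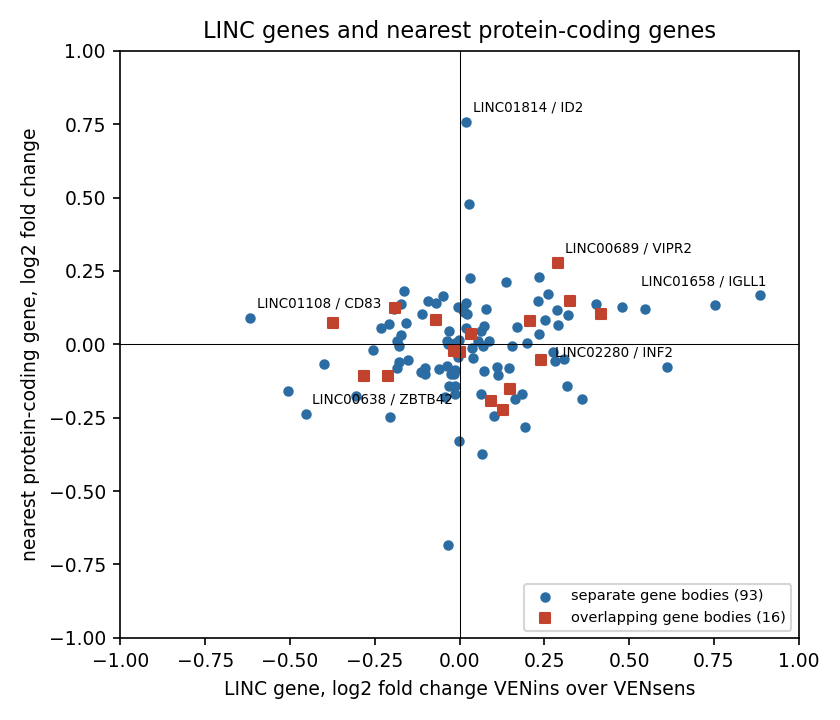
Log2 fold change (VENins over VENsens) of 109 LINC genes on the horizontal axis and of the nearest tested protein-coding gene on the vertical axis. Red squares are 16 pairs whose gene bodies overlap, and points lie on all sides of 0, with 63 of 109 pairs of the same sign.

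The library kit does not mark strand, so that reads from a member and a gene on the other strand of the same place cannot be told apart, and the strand setting of the counting is not given in the sources used here. A gene on the other strand overlaps 65 of 150 members, whose counts are uncertain for this reason. Among the members named here by rule these were 11, LINC00426, LINC00339, LINC00909, LINC00847, LINC00662, LINC02532, LINC01221, LINC00484, LINC00865, LINC01915 and LINC00115. LINC00689 overlaps VIPR2 in this way. LINC00909, which overlaps ZNF407, had CPM of 37.5, 40.5, 37.8, 39.1 and 38.4 in VENsens and 44.9, 42.7, 43.5, 41.0 and 38.5 in VENins lines, a log2 fold change of 0.13 (SE 0.06), adjusted p = 0.317 in edgeR's quasi-likelihood test, while ZNF407 had -0.22 (SE 0.08, adjusted p = 0.187). LINC00689 and VIPR2 had 0.29 and 0.28 (SE 0.17, adjusted p = 0.432) in the same test. The log2 fold change of VIPR2 ran from 0.05 without line pair 5 to 0.44 without line pair 4. Reads can also be lost or shared where a member has near copies. In 13 members at least 10% of the longest transcript matched another gene at 98% identity over 75 bases or more, and in 4, LINC00843, LINC00893, LINC00894 and LINC01881, at least 50% did, named here after their matches were seen. Their counts, and those of LINC00115 with 49.6%, are uncertain.

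The spread among lines of the same condition was measured for each member. The SD of log2 CPM among 5 lines had, over all members, a median of 0.23 for VENsens and of 0.24 for VENins. Among members of at least 10 CPM it was 0.09 and 0.11, close to the medians of 0.08 and 0.10 over 9972 tested genes of that level, and 17 of 26 members (65.4%) were wider among VENins lines, as were 65.3% of those genes. Over all 150 members the share was 54.7%, against 62.2% of all tested genes. Lines of 1 condition were compared with counting error by a chi-square over its degrees of freedom, which is near 1 if reads are drawn at random. This sets separately kept cultures against counting error alone, and a value over 1 does not by itself mark unusual lines. The median was 3.23 in VENsens and 3.98 in VENins lines for members of at least 10 CPM, and 1.45 and 1.36 for those under 1 CPM.

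VENins line 4 was the lowest VENins line of several named members. LINC00689, the fourth most abundant member and named here after its values were seen, had CPM of 56.4, 61.8, 48.8, 55.6 and 48.4 in VENsens and 74.2, 63.5, 74.1, 41.2 and 83.8 in VENins lines. Line 4 was the lowest of all 10 libraries, and the other 4 VENins lines were above all VENsens lines. The log2 fold change was 0.29 (SE 0.13), adjusted p = 0.273 in edgeR's quasi-likelihood test, and without line pair 4 it was 0.46 with an adjusted p of 0.0131, while over all alternatives the fold change ran down to 0.16, without line pair 5, and the adjusted p from 0.00279, without a filter, to 0.575. LINC01250 had CPM of 1.21, 1.41, 1.20, 1.44 and 0.914 in VENsens and 2.79, 2.07, 2.07, 0.669 and 1.67 in VENins lines, again with line 4 as the lowest. Its log2 fold change of 0.55 (SE 0.25), adjusted p = 0.295, became 0.86 without line pair 4, adjusted p = 0.0276 in the same test and up to 0.665 in other alternatives.

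LINC00426 and LINC00163 were also lowest in VENins line 4. CPM of LINC00426 was 73.1, 76.7, 67.1, 71.1 and 68.8 in VENsens and 80.8, 76.8, 75.4, 60.1 and 79.8 in VENins lines, and CPM of LINC00163 was 30.2, 31.1, 26.5, 26.2 and 25.3 and 32.8, 30.4, 25.7, 22.2 and 30.2. The groups overlapped in both. Of 50 members with at least 5 CPM, VENins line 4 was the lowest of the 5 VENins lines in 14 and VENins line 5 in 18, while VENins line 1 was the highest in 18. Over all genes it was VENins line 5 that lay farthest from the others, with a chi-square over its degrees of freedom of 12.1 to 13.0 against each other VENins line, and 3.995 to 8.81 between the other 4.

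**Figure D5:**
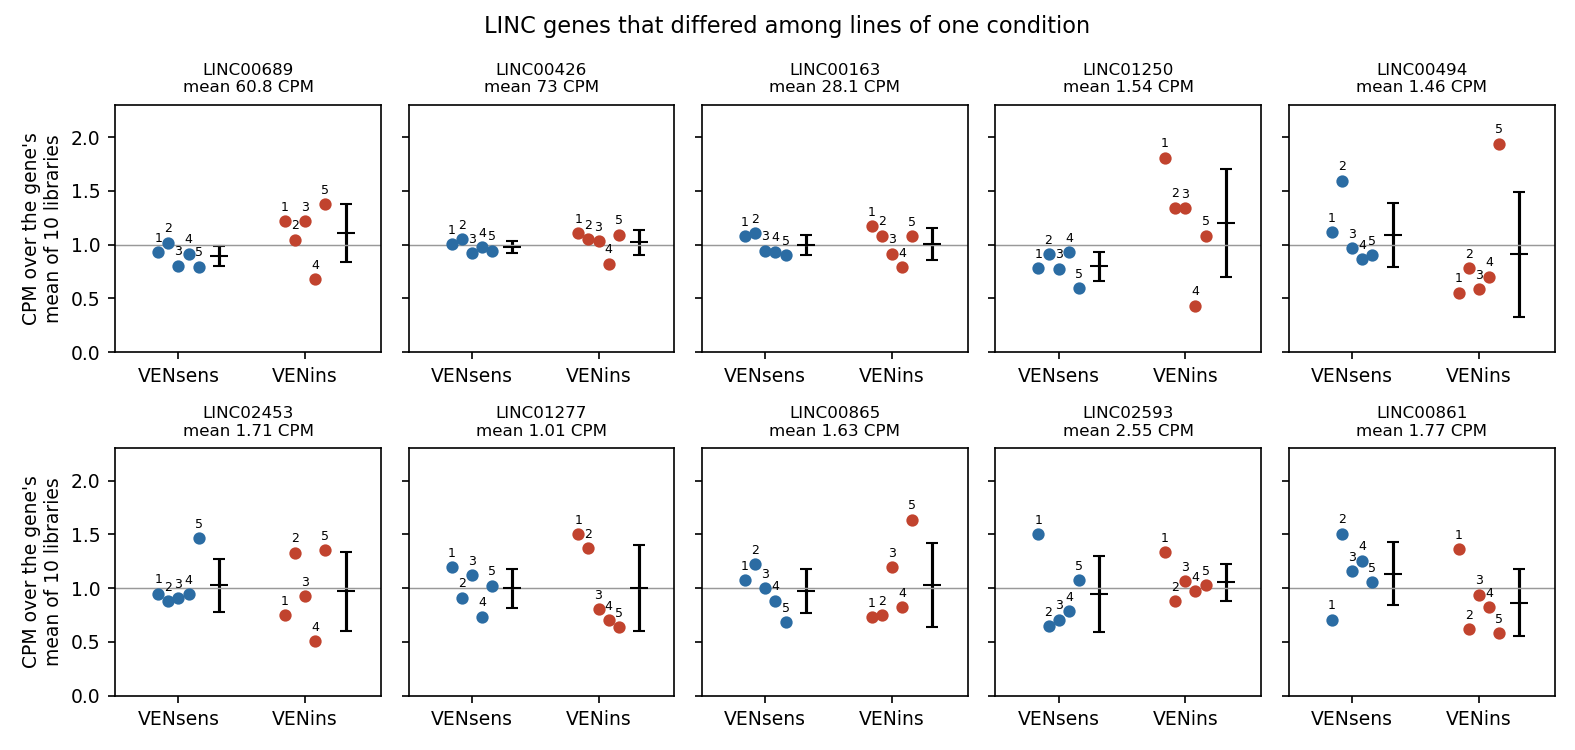
CPM of 10 LINC genes in each line, divided by the mean CPM of that gene over 10 libraries (linear axis), VENsens in blue and VENins in red with line numbers and mean ± SD in black. VENins line 4 is the lowest VENins line of LINC00689, LINC00426, LINC00163, LINC01250 and LINC02453, and VENins line 5 is the highest of LINC00494 and LINC00865.

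The largest SDs of log2 CPM among VENins lines, for members of at least 1 CPM, were 0.74 in LINC01250, 0.71 in LINC00494, 0.57 in LINC02453, 0.52 in LINC01277 and 0.49 in LINC00865. Among VENsens lines they were 0.49 in LINC02593, 0.41 in LINC01915, 0.39 in LINC00861, and 0.37 in both LINC00484 and LINC01534. LINC00861 was uneven in both conditions, with CPM of 1.25, 2.67, 2.05, 2.22 and 1.87 in VENsens and 2.41, 1.10, 1.66, 1.46 and 1.03 in VENins lines. No single line was extreme in all of these genes.

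A list of 7 LINC genes known from lymphocytes gave 5 members. LINC01215 was the most abundant per kilobase, with CPM of 54.0, 61.1, 57.8, 60.5 and 58.5 in VENsens and 62.1, 51.2, 52.5, 50.3 and 40.2 in VENins lines. VENins line 1 was above and the other 4 VENins lines below all VENsens lines, and the log2 fold change of -0.19 (SE 0.08) had an adjusted p of 0.260 in edgeR's quasi-likelihood test. LINC00926, a B cell RNA, had CPM of 8.83, 6.83, 9.64, 8.31 and 6.40 in VENsens and 6.95, 6.87, 6.69, 7.88 and 8.23 in VENins lines, a log2 fold change of -0.12 (SE 0.12). LINC00494 had CPM of 1.62, 2.33, 1.41, 1.26 and 1.31 in VENsens and 0.804, 1.14, 0.851, 1.02 and 2.83 in VENins lines, where VENins line 5 was above all other lines. Without 1 of the line pairs, the fold change ran from -0.29 to -0.11 for LINC01215 and from -0.24 to -0.0090 for LINC00926. The log2 fold changes of LINC00494, LINC00861 and LINC00426 were -0.30 (SE 0.27), -0.40 (SE 0.24) and 0.06 (SE 0.07), which ran from -0.77 to -0.11, from -0.73 to -0.19 and from 0.02 to 0.14 when a line pair was left out. None of the 5 members passed the threshold, with adjusted p-values from 0.260 to 0.692 in edgeR's quasi-likelihood test. LINC02397 and LINC01857 were listed at 0 in all libraries, which allows up to 0.0125 CPM over the 10 libraries together.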

How the data were processed

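The count files that the authors deposited hold raw read counts per Ensembl gene identifier, with 5 summary lines for reads not counted on a gene. Those lines held 45.8% to 47.3% of the 38491516 to 52960365 reads per library, and gene counts were 20631907 to 28323643. The submitters' processing notes name bcl2fastq 2.20.0.422, Bowtie2 2.3.5.1, SAMtools 1.9 and HTSeq 0.9.1. The strand setting and the annotation release of the counting are not given in the sources used here. Files were counted on hg19 (GRCh37), while names, types, exons and positions come from GENCODE 29 (GRCh38), matched by Ensembl identifier, and promoters from RefSeq (GRCh38.p14).

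CPM is the count divided by the library's gene counts, times 1e6. Genes with low counts were removed with filterByExpr of edgeR 4.0.16 (limma 3.58.1, R 4.3.3) at a minimum count of 10 and a total of 15. TMM factors scaled the libraries, and a quasi-likelihood model was fitted on condition and line number. P-values were adjusted by Benjamini-Hochberg over the 16756 tested genes and called under 0.05. Log2 CPM used a prior count of 2. The code was tested on simulated data. Python 3.11.15, numpy 2.4.6, pandas 2.3.3 and matplotlib 3.10.9 were used for tables and plots, and BLAST+ 2.17.0 for copies, at 98% identity over at least 75 bases.

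Named members were those with an adjusted p under 0.05, the 10 with the smallest p, the 10 with the highest level per kilobase, the 5 with the largest SD of log2 CPM in each condition among those of at least 1 CPM, the 3 just inside and the 3 LINC genes just outside the minimum level, the members of the lymphocyte list and up to 10 whose groups did not overlap, which were 5. The nearest protein-coding genes of the first 2 groups were named with them, and other genes were named after their values or positions were seen. The rule was written before the files were read, but members and lists were chosen with earlier results of these data known, so that the naming is not independent of them. The authors describe a paired analysis, and lines were paired here by the number they share in the labels. The alternatives were no line number, DESeq2 1.42.0 with and without it, RLE size factors, library size, no filter, at least 10 counts in every library, leaving out each line pair, other thresholds and other minimum levels.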

Additional observations from a re-analysis of the deposited data

Results flagged for a closer look

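In 6 of 70 groups of 5 lines, counting both conditions of 34 named members and of the members' share of counts, 1 line lay far from the other 4 of its condition. Chance gives about 1 in 20 such groups, but this does not hold here, since 10 of the members were named for a large SD among lines and others for a small p. LINC00426 was at 60.1 CPM in VENins line 4, with the other VENins lines from 75.4 to 80.8 CPM. LINC01534 was at 1.97 CPM in VENins line 4 (others 1.54 to 1.63), the highest of its condition. LINC00963 was at 11.1 CPM in VENins line 3 (others 7.29 to 8.13) and LINC00494 at 2.83 CPM in VENins line 5 (others 0.804 to 1.14). Among VENsens lines, LINC02453 was at 2.50 CPM in line 5 (others 1.5 to 1.62) and LINC01658 at 1.12 CPM in line 1 (others 0.636 to 0.741).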

How the results depend on the processing

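The number of members past the threshold, 1 of 150, was also 1 with DESeq2 and the line number, with RLE size factors, with library size and with at least 10 counts in every library. It was 2 without the line number (LINC01108 and LINC01658), 2 with DESeq2 without the line number (LINC01108 and LINC00963), 4 without a filter (LINC00689, LINC01108, LINC00963 and LINC01658), 0 at a threshold of 0.01 and 2 at 0.1. Leaving out each line pair gave 0 to 3. Genes past the threshold were 33, with 149 without the line number, 217 and 739 with DESeq2 with and without the line number, 664 without a filter, 6 at 0.01, 293 at 0.1 and 6 to 331 when a pair was left out. The cause was not tested. VENins and VENsens lines were paired in a block by the number they share in the labels. Deviations of same-numbered lines from the mean of their condition had correlations of -0.10 to 0.03, and no VENins line correlated best with its own number. Without LINC02363 the members' share of gene counts was 0.115%. The number of members was 111 to 203 under 4 other minimum levels.

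LINC01108 kept its direction under all 12 alternatives, with log2 fold changes of -0.72 to -0.56, and passed in 10 of them. Over the 34 named members, 344 of the log2 fold changes kept their direction and side of the threshold, 32 kept their direction but had no adjusted p from DESeq2, 6 came to pass it, 2 ceased to and 19 reversed. The reversed ones, none with an adjusted p under 0.05, were LINC00339 with library size (-0.0016), LINC01277 with DESeq2 without the line number (0.00038) and LINC00115 with DESeq2 with it (0.032). DESeq2 gave LINC01277 and LINC00115 no adjusted p there. When a pair was left out, LINC00339 ranged from -0.017 to 0.026, LINC00847 from -0.030 to 0.032, LINC00163 from -0.045 to 0.081, LINC00484 from -0.24 to 0.11, LINC01534 from -0.22 to 0.044, LINC02453 from -0.28 to 0.053, LINC00865 from -0.25 to 0.25, LINC01277 from -0.19 to 0.11 and LINC00115 from -0.21 to 0.21. The cause was not tested. At 0.5 CPM a library holds 10.3 to 14.2 counts, which limits the precision of members near the minimum level.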

Other observations

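The minimum level of 0.5 CPM and the filter on low counts differed at the margin, since 12 LINC genes under this level passed the filter. A newer table names 16 of the 150 members otherwise, 6 of them with a symbol ending in -DT after a neighbouring gene, and 3 are not in that table. The same LINC symbol, LINC01481, stands for 2 identifiers, so that the members carry 149 different symbols.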
